A study of Mus musculus with 9 samples.

Results

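Epidermal keratinocytes of Hmga2-/- mice were compared with those of WT mice after ultraviolet B (UVB) exposure, across all protein-coding genes that reached a normalized count of 10 in at least 3 of the 9 libraries of the study. Of 22028 protein-coding genes listed, 12968 met this rule. The other 9060 were not tested, and 5391 of them stood at 0 in all 9 libraries. The Hmga2-/- group held 3 mice and the WT group 3 mice, so 6 of the 9 libraries make up the comparison. The remaining 3 libraries, of the genotype labelled K5H2, entered the fit only to help estimate the spread between animals. All animals were 8 weeks old, with dorsal follicles in telogen, the resting phase of the hair cycle. Every animal of both genotypes had been given UVB on the back, 2 times 20 mJ/cm2 over 3 days, and was sampled 24 h later, so the comparison is between genotypes within exposed skin. The epidermis was floated off on 0.25% trypsin overnight before RNA was taken. The labels name no promoter, Cre line or tissue for the deletion, and strain, sex, litter and the deleted part of the gene are not given in the sources used here.

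HMGA2 is a small chromatin protein whose AT-hook motifs bind the minor groove of AT-rich DNA. It is abundant in embryonic tissue and scarce in most adult tissue. UVB is absorbed mainly in the epidermis, where it damages DNA, activates p53 and sets off a wound-like programme in keratinocytes with keratins 6 and 16, cornified envelope precursors and inflammatory signals. Exposed keratinocytes also send melanocytes signals such as melanocortins from Pomc, stem cell factor from Kitl and endothelins. The melanocortin receptor MC1R raises cAMP in melanocytes, and cAMP acts through protein kinase A and CREB on Mitf, the regulator of the lineage. The series title links Hmga2 with cAMP signalling and melanocyte stem cells.

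The 6 libraries did not form tight groups. In a principal component analysis the first component held 61.8% of the variance. Its ends were Hmga2-/- 3 (-64.1) and WT 1 (78.1), while Hmga2-/- 1 and 2 lay at -20.7 and -26.3 and WT 2 and 3 at 6.71 and 26.2. Approximate depth was 15.4 to 36.3 M reads in Hmga2-/- libraries, with Hmga2-/- 3 the shallowest, and 32.9 to 41.7 M reads in WT libraries. Mitochondrial transcripts made up 0.279% to 2.15% of the normalized counts in Hmga2-/- libraries and 1.19% to 1.69% in WT libraries. The keratinocyte markers Krt5, Krt14, Krt1, Krt10, Trp63, Cdh1 and Dsp summed to between 2837112 and 4213116 normalized counts in Hmga2-/- libraries and between 2261458 and 3265779 in WT libraries. Markers of the melanocyte, Langerhans cell and epidermal T cell were also detected in every library. The endothelial markers stayed at a summed 22 or less.

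Hmga2 itself, on chromosome 10 (120361275 to 120476469, GRCm38), was at 3, 9 and 7 normalized counts in Hmga2-/- keratinocytes, against 346, 11 and 56 in WT keratinocytes. All Hmga2-/- values lay below all WT values, but WT 2 stood only just above, and WT 1 held most of the WT signal. The log2 fold change was -3.18 (SE 1.17) and did not pass the test (limma adjusted p = 0.152). An exact two-sided permutation test gave p = 0.1, which is as low as 3 against 3 can go. Fold changes here and below are on the log2(normalized count + 1) scale, Hmga2-/- over WT, and adjusted p values come from limma with Benjamini-Hochberg adjustment over all genes tested, with 0.05 as the threshold. Hmga1, the closest relative, was at 4495, 2559 and 3265 in Hmga2-/- keratinocytes and at 4126, 3712 and 3941 in WT keratinocytes (log2 fold change -0.23, adjusted p = 0.470). None of the 9 high-mobility-group genes tested passed the threshold. Around the Hmga2 locus, 0 of 133 tested genes within 10 Mb on either side were called, and their median log2 fold change was -0.042. Since 0.733% of all tested genes were called, the lack of a call among 133 says little. Of the 133, 24 were lower and 20 higher without overlap, against 15.6% and 15.4% of all tested genes.

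Across the genome 95 of the 12968 genes (0.733%) were called. Of these, 80 (0.617%) were lower in Hmga2-/- keratinocytes and 15 (0.116%) were higher. All 95 had Hmga2-/- and WT values that did not overlap, which was also true of 15.6% of all tested genes in the lower direction and 15.4% in the higher direction. An unadjusted p under 0.05 was reached by 3190 genes. The falls were also larger than the rises: 59 of the 80 lower genes and 8 of the 15 higher genes were beyond 4-fold. Over all tested genes the median log2 fold change was -0.0011 and 50.1% of values were negative, a balance that the authors' scaling between libraries can set. With totals of the libraries made equal, the median of all genes was -0.16, and 165 genes were lower and 13 higher.

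**Figure D1:**
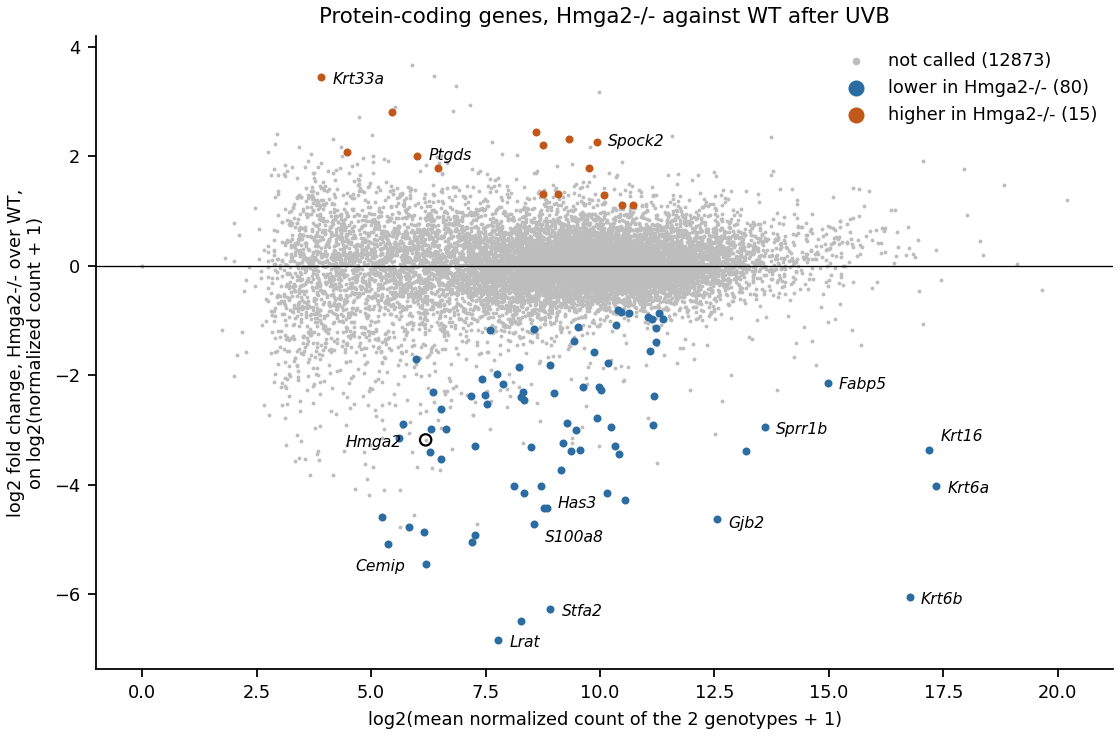
Each point is 1 of the 12968 protein-coding genes, with the log2 mean normalized count of both genotypes on the x axis and the log2 fold change of Hmga2-/- over WT on the y axis. The 80 genes called lower (blue) reach log2 fold changes near -7 and include very abundant keratins at the right, while the 15 called higher (orange) stay below 4; Hmga2 is circled.

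The number of genes that passed rested on single animals. The count of calls was 9, 43 and 5 without Hmga2-/- 1, 2 and 3, and 21, 468 and 0 without WT 1, 2 and 3. It was 51 and 44 without K5H2 2 and 3. Without both Hmga2-/- 3 and WT 1, the ends of the first component, the limma fit left 0 calls, and 1078 genes had an unadjusted p under 0.05. The limma fit without WT 3 likewise left 0 calls, and there 2609 genes had an unadjusted p under 0.05. All 95 genes kept their direction in each of these fits. In the WT group, WT 1 was the highest WT animal for 74 of the 80 lower genes and WT 2 the lowest for 76. In the Hmga2-/- group, Hmga2-/- 2 was the highest mutant animal for 54 of the 80 and Hmga2-/- 3 the lowest for 51.

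**Figure D2:**
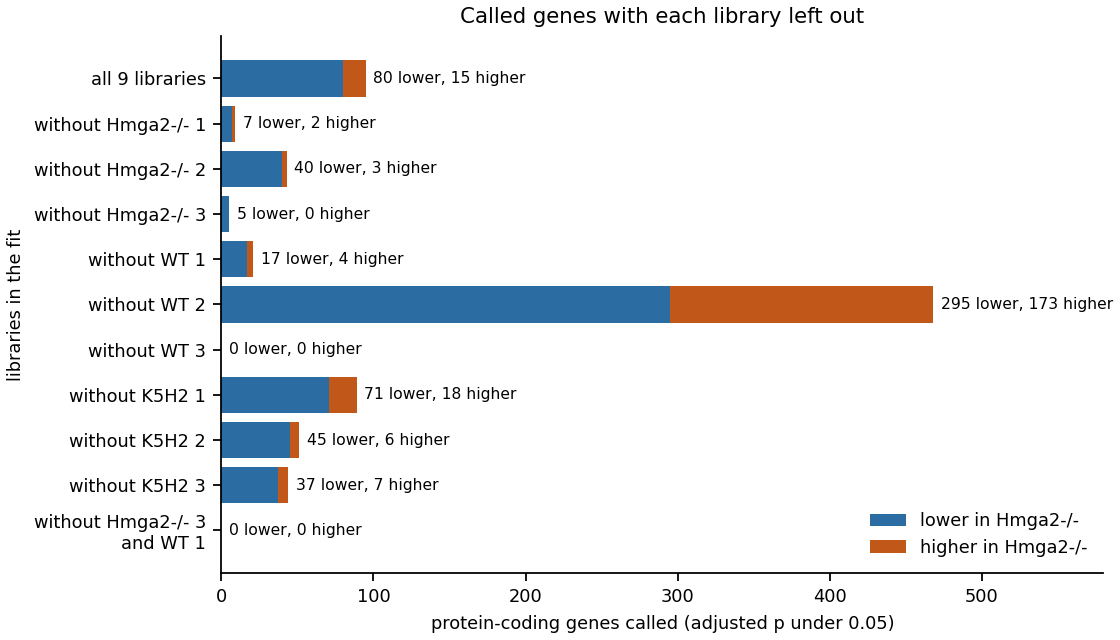
Bars give the number of protein-coding genes called at an adjusted p under 0.05 when the library named on the y axis is left out of the fit, split into genes lower (blue) and higher (orange) in Hmga2-/-. The count runs from 0 without WT 3 to 468 without WT 2, against 95 with all 9 libraries.

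Keratins of wounded epidermis were far lower in Hmga2-/- keratinocytes. Of the 4 tested, Krt6b, Krt6a and Krt16 fell and Krt17 did not pass, and the median log2 fold change of the list was -3.69. Krt6b was at 1331, 8108 and 2350 in Hmga2-/- animals and at 323404, 94151 and 240867 in WT animals (log2 fold change -6.05, SE 0.76, adjusted p = 0.0113). Krt6a was at 11832, 29438 and 13427 in Hmga2-/- animals and at 512372, 129331 and 304316 in WT animals (-4.02, SE 0.55, adjusted p = 0.0180). Krt16, the type I partner of keratin 6, was at 17472, 45891 and 18673 in Hmga2-/- animals and at 350701, 147171 and 316526 in WT animals (-3.36, SE 0.52, adjusted p = 0.0236). In each case the highest mutant animal, Hmga2-/- 2, remained well below the lowest WT animal, WT 2. Krt6a and Krt6b are close copies between which the counting could have divided reads. In bulk epidermis, fewer cells that make a transcript and less of it per cell cannot be told apart. Krt17, which is also made by resting follicles, was at 86509, 118900 and 116294 in Hmga2-/- animals and at 175248, 113723 and 155820 in WT animals, and these values overlap (-0.46, adjusted p = 0.380). Without Hmga2-/- 3 and WT 1 the median of the 4 keratins was -3.17.

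Of 9 keratins of resting epidermis none was called, 8 had positive log2 fold changes and the median was 0.59. Krt15, a keratin of basal and bulge cells, was at 180655, 147214 and 317010 in Hmga2-/- animals, against 31111, 75995 and 66044 in WT animals, without overlap and just short of the threshold (1.92, SE 0.39, adjusted p = 0.0552). The basal keratin Krt14 was at 631250, 669146 and 778826 in Hmga2-/- animals and at 992163, 790172 and 1053123 in WT animals (-0.44, adjusted p = 0.512). Its partner Krt5 overlapped, with 620847, 465923 and 636557 in Hmga2-/- animals and 535195, 569546 and 565617 in WT animals (0.03, 95% interval -0.76 to 0.82). The suprabasal Krt10 was at 1110795, 1570451 and 2210489 in Hmga2-/- animals and at 329606, 1197585 and 820138 in WT animals (1.19, adjusted p = 0.237). WT 1 had the lowest median of this list among the 6 libraries, and without WT 1 the median was 0.28.

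**Figure D3:**
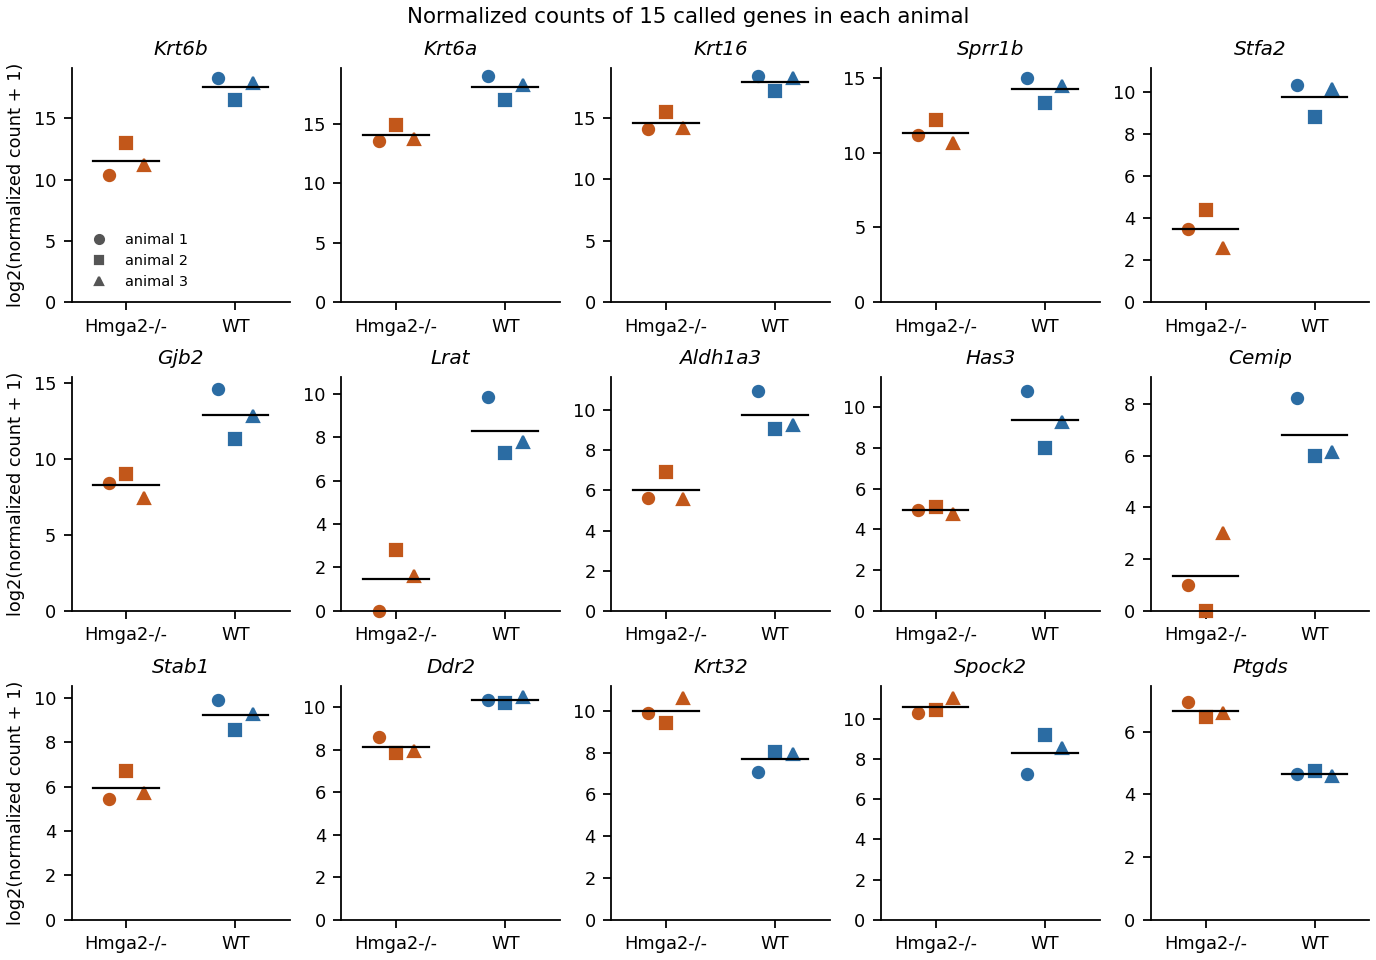
Each panel shows 1 called gene, with log2(normalized count + 1) of the 3 Hmga2-/- animals (orange) left of the 3 WT animals (blue); the symbol gives the animal number and the line the group mean. In all 15 panels the genotypes do not overlap, and Krt32, Spock2 and Ptgds are the ones that stand higher in Hmga2-/-.

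Cornified envelope precursors were split between families. All 12 small proline-rich protein genes tested had negative log2 fold changes (median -2.91), and Sprr1b and Sprr2a3 were called. Of the 12, 9 were lower without overlap, against 15.6% of all tested genes. Sprr1b was at 2270, 4607 and 1567 in Hmga2-/- animals and at 33190, 10014 and 22763 in WT animals (-2.95, SE 0.51, adjusted p = 0.0386). Sprr2a3 was at 219, 144 and 44 in Hmga2-/- animals and at 987, 1172 and 1392 in WT animals (-3.38, SE 0.65, adjusted p = 0.0478). Sprr2 genes are near-identical copies, so the split of reads among them is uncertain. Sprr2h, Sprr2a2 and Sprr2d came close (adjusted p = 0.0552, 0.0552 and 0.0572), and Sprr1a was at 14588, 15128 and 7208 in Hmga2-/- animals overlapping with 24992, 12966 and 16365 in WT animals (-0.58, adjusted p = 0.289). Without Hmga2-/- 3 and WT 1 the median of the family was -2.04.

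Late cornified envelope genes gave no call among 21 tested. The 6 Lce3 genes all had negative log2 fold changes, from -3.69 for Lce3f to -1.12 for Lce3c. Lce3f was at 11, 23 and 2 in Hmga2-/- animals and at 277, 76 and 85 in WT animals (adjusted p = 0.0574). Most of the remaining Lce genes ran the other way but with wide spread: Lce1m, the most abundant with Lce1a1, was at 8828, 22068 and 31405 in Hmga2-/- animals and at 522, 11722 and 7629 in WT animals (2.34, 95% interval -0.07 to 4.76). The list median was 0.47, and it was -0.42 without WT 1. Among 23 genes of the granular layer and envelope crosslinking none was called. The transglutaminase gene Tgm3 was at 2123, 2065 and 2065 in Hmga2-/- animals, below 3515, 3214 and 4188 in WT animals (-0.79, adjusted p = 0.0669). Loricrin (Lor), the main envelope protein, was at 101463, 369366 and 691752 in Hmga2-/- animals and 25665, 196348 and 132849 in WT animals (1.76, adjusted p = 0.223).

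To see what the starts of these genes hold, the 250 bases before each RefSeq start (GRCm38.p6) were searched on both strands for the TATA sequence TATAAA, the AP-1 sequence TGAGTCA and the cAMP response element TGACGTCA. No one of these 3 sequences contains another. Promoters were matched for 55 of the 80 lower genes and 10 of the 15 higher ones. TATAAA was found in 12 of the 55 lower genes (21.8%), in 1 of the 10 higher genes (10%), in 7.99% of 10180 tested genes with a promoter, and in 14.3% of all 27025 genes of the promoter table. TGAGTCA was found in 2 of the 55 lower genes (3.64%) and 3 of the 10 higher genes (30%), against 4.42% of tested genes, and TGACGTCA in 1 lower gene (1.82%) and no higher gene, against 3.05% of tested genes. These are descriptions of letters in a window, not of binding. The last 100 bases before the start are shown 5′ to 3′ for 6 genes whose matches lie there, with the matches in capitals on either strand. The first 4 belong to genes that fell and the last 2 to genes that rose.
S100a8: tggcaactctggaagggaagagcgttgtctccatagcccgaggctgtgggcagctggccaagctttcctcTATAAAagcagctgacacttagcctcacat
Sprr1b: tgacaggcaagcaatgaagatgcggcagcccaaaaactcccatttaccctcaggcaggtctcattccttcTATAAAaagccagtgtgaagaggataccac
Cemip: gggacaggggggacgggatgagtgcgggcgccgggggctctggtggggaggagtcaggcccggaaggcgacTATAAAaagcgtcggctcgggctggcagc
Fscn1: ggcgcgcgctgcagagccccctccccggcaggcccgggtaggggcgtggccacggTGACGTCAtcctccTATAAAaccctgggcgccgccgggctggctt
Krt32: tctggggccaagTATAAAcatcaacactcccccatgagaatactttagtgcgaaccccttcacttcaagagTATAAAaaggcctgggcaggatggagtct
Ptgds: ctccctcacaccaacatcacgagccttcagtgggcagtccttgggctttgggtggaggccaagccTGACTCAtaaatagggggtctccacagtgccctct
S100a8 lies at chr3:90668971-90669070 on the plus strand, Sprr1b at chr3:92438780-92438879 on the minus strand and Cemip at chr7:84086506-84086605 on the minus strand. Fscn1 lies at chr5:142960255-142960354 on the plus strand, Krt32 at chr11:100088270-100088369 on the minus strand and Ptgds at chr2:25469750-25469849 on the minus strand. TATAAA starts about 30 bases before the start in S100a8, Sprr1b, Cemip, Fscn1 and Krt32, and Fscn1 is the 1 lower gene that also holds the cAMP response element. The Ptgds capitals are the AP-1 sequence as read on the other strand. Median AT content of the windows was 42.8% for lower genes, 42.6% for higher genes and 40.3% for tested genes.

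Protease inhibitors and proteases of stressed epidermis fell in part. Of 8 stefin-type cysteine protease inhibitors tested, Stfa2, BC117090 and BC100530 fell, and 7 of 8 values were negative (median -2.40). Stfa2 was at 10, 20 and 5 in Hmga2-/- animals and at 1284, 440 and 1131 in WT animals (-6.27, SE 0.78, adjusted p = 0.0113). BC100530 was at 953, 4875 and 786 in Hmga2-/- animals and at 20905, 11361 and 17239 in WT animals (-3.38, SE 0.61, adjusted p = 0.0432). These are neighbouring copies on chromosome 16 whose reads may be divided among them. Cst6, the epidermal cystatin of the same list, was not called, at 27112, 37321 and 21269 in Hmga2-/- animals and 25925, 25362 and 21265 in WT animals (0.21, 95% interval -0.34 to 0.76). Among clade B serpins 1 of 12 was called: Serpinb6c was at 196, 523 and 119 in Hmga2-/- animals and at 2278, 1060 and 1652 in WT animals (-2.78, adjusted p = 0.0430).

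Of 11 kallikreins, serine proteases that act in shedding of the stratum corneum, Klk13 fell. It was at 229, 356 and 115 in Hmga2-/- animals and at 3878, 1324 and 2314 in WT animals (-3.43, SE 0.61, adjusted p = 0.0386). Klk6 was at 1087, 4207 and 1298 in Hmga2-/- animals and at 16159, 6510 and 9422 in WT animals (-2.46, adjusted p = 0.0642), while Klk5 had higher values in 2 of the Hmga2-/- animals than in any WT animal (0.79, adjusted p = 0.166). Among 13 membrane serine proteases Tmprss11b was called, with 11, 12 and 2 in Hmga2-/- animals and 608, 128 and 164 in WT animals (-4.92, SE 0.78, adjusted p = 0.0279). Without Hmga2-/- 3 and WT 1 the medians of the stefin, serpin and kallikrein lists were -1.80, -0.31 and -0.10.

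Among cell junction genes 1 of 9 connexin and pannexin genes fell, and none of 12 desmosome genes (median -0.43) or 19 hemidesmosome, basement membrane and integrin genes (median -0.31) was called. Gjb2, the connexin 26 gene of hyperproliferative epidermis, was at 347, 521 and 171 in Hmga2-/- animals and at 25293, 2603 and 7206 in WT animals (-4.63, SE 0.76, adjusted p = 0.0305). Its neighbour in gap junctions Gjb6 had the same order of animals without passing (-2.56, adjusted p = 0.0608). The gasdermin genes Gsdmc and Gsdmc2 fell among 7 tested. Gsdmc was at 566, 866 and 288 in Hmga2-/- animals and at 4370, 3214 and 4314 in WT animals (-2.91, SE 0.42, adjusted p = 0.0206), with WT animals alike, while Gsdma, the abundant epidermal gasdermin, was at 7910, 10855 and 9715 in Hmga2-/- animals and 6170, 9854 and 9790 in WT animals (0.16, adjusted p = 0.644). Reads of the Gsdmc copies may also be divided.

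S100a8, which encodes an alarmin of inflamed skin, was the 1 called member of 10 S100 genes. It was at 11, 33 and 19 in Hmga2-/- animals and at 1347, 163 and 667 in WT animals (-4.71, SE 0.78, adjusted p = 0.0326). Its partner S100a9 was at 128, 252 and 101 in Hmga2-/- animals and at 3064, 489 and 2047 in WT animals, short of the threshold (-3.28, adjusted p = 0.0699). Neutrophils also carry both transcripts. Of the neutrophil genes, Ly6g was at 0 in all 6 libraries, Mpo was at 0 in the Hmga2-/- libraries and at most 2 in the WT libraries, and Cxcr2 was at 111, 142 and 44 in Hmga2-/- animals and at 303, 222 and 279 in WT animals (-1.57, not called). Their part in the S100a8 difference was not tested. The other 9 S100 genes were not called, and the list median was 0.07, or -0.10 with equal totals. Of 11 antimicrobial and secreted defence genes Chil1, a chitinase-like protein gene, was called. Chil1 was at 117, 163 and 65 in Hmga2-/- animals and at 3421, 999 and 2086 in WT animals (-4.15, SE 0.46, adjusted p = 0.00949). Lcn2 was at 209, 248 and 54 in Hmga2-/- animals and at 2479, 438 and 1220 in WT animals (-2.95, adjusted p = 0.0853), and the defensins Defb1 and Defb6 were not called.

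Among 17 retinoid genes 2 fell in Hmga2-/- keratinocytes, Lrat and Aldh1a3. Lrat, which esterifies retinol for storage, was at 0, 6 and 2 in Hmga2-/- animals and at 936, 152 and 216 in WT animals, the largest called fold change in the comparison (-6.83, SE 0.83, adjusted p = 0.0113). Because its Hmga2-/- values are near 0, the size of this fall depends on the value added before taking logs. Aldh1a3, which oxidises retinaldehyde to retinoic acid, was at 48, 122 and 47 in Hmga2-/- animals and at 2011, 528 and 623 in WT animals (-3.72, SE 0.61, adjusted p = 0.0304). Of the 17, 11 had negative log2 fold changes (median -0.28, or -0.11 without WT 1). Dgat1, which also esterifies retinol, was at 667, 583 and 503 in Hmga2-/- animals and at 2403, 723 and 1118 in WT animals (-1.10, adjusted p = 0.124). The receptor gene Rarg was at 13527, 9951 and 12290 in Hmga2-/- animals and at 7597, 10698 and 10975 in WT animals (0.30, adjusted p = 0.321), and the binding protein gene Crabp2 overlapped between genotypes (-0.33, adjusted p = 0.495). Outside the list, Rbp2, a cellular retinol-binding protein gene, fell as well, with 1329, 1745 and 936 in Hmga2-/- animals and 3769, 2713 and 3901 in WT animals (-1.40, adjusted p = 0.0499). The aldehyde oxidase gene Aox4 was at 66, 254 and 117 in Hmga2-/- animals and at 1892, 913 and 1283 in WT animals (-3.37, SE 0.46, adjusted p = 0.0180).

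Hyaluronan genes were the only list of more than 10 tested members, besides the small proline-rich proteins, in which every member had a negative log2 fold change. All 11 were negative (median -1.75), 8 without overlap, against 15.6% of all tested genes in the lower direction. The 3 called, against 0.617% of all tested genes called lower, have roles in making, degrading and clearing hyaluronan. Has3, a hyaluronan synthase gene of epidermis, was at 30, 33 and 26 in Hmga2-/- animals and at 1755, 259 and 623 in WT animals (-4.43, SE 0.58, adjusted p = 0.0151). Cemip, needed for depolymerising hyaluronan, was at 1, 0 and 7 in Hmga2-/- animals and at 296, 62 and 70 in WT animals (-5.45, SE 0.80, adjusted p = 0.0221). Stab1, a scavenger receptor gene for hyaluronan, was at 42, 103 and 51 in Hmga2-/- animals and at 959, 374 and 625 in WT animals (-3.31, SE 0.41, adjusted p = 0.0113). The Hmga2-/- animals were close together for Has3, and the WT animals differed by several fold. The surface receptor Cd44 was at 5100, 4676 and 3447 in Hmga2-/- animals and at 12017, 6381 and 6736 in WT animals (-0.88, adjusted p = 0.107). The abundant hyaluronidase gene Hyal2 overlapped (-0.24, adjusted p = 0.456). Without Hmga2-/- 3 and WT 1 the list median was -0.52. Stab1 and Lyve1 are also made by macrophages. In the list of neutrophil and macrophage genes 8 of 11 values were negative, 5 of them without overlap, against 15.6% of all tested genes. The list median was -0.70, or -0.57 without Hmga2-/- 3 and WT 1. Its 1 call was S100a8. The macrophage markers C1qa and Adgre1 overlapped between genotypes, and Cd68 did not, at 73, 97 and 44 in Hmga2-/- animals and 236, 163 and 144 in WT animals (-1.37, adjusted p = 0.118). The part of such cells in the Stab1 difference was not tested.

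Other called falls, chosen after their values were seen, included genes of the matrix and the cytoskeleton. The collagen receptor kinase gene Ddr2 was even within each genotype, with 387, 227 and 246 in Hmga2-/- animals and 1309, 1171 and 1417 in WT animals (-2.21, SE 0.23, adjusted p = 0.00799). Tnc, which encodes tenascin-C of healing skin, was at 271, 402 and 320 in Hmga2-/- animals and at 2842, 987 and 1398 in WT animals (-2.27, SE 0.32, adjusted p = 0.0182). The fibulin family genes Fbln1, Fbln2 and Efemp2 fell by 1.57, 1.85 and 3.53 on the log2 scale. The log2 fold changes of the tubulin genes Tubb6 and Tubb3 were -3.29 and -3.23, and those of the actin regulators Fscn1 and Cotl1 were -2.38 and -0.94, all 4 called. Fscn1, encoding the actin bundler fascin, was at 550, 930 and 599 in Hmga2-/- animals and at 6360, 1923 and 3544 in WT animals. Among 14 dermal fibroblast genes, by contrast, 10 had positive log2 fold changes and none was called.

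Ligands and receptors gave few calls. Among 17 genes of EGF-family ligands, ErbB receptors and their regulators, Nrg1, a ligand of ErbB3 and ErbB4, fell to 25, 25 and 16 in Hmga2-/- animals, against 1415, 152 and 298 in WT animals (-4.15, SE 0.69, adjusted p = 0.0326). Tgfa was at 782, 813 and 907 in Hmga2-/- animals and at 2672, 1027 and 1230 in WT animals (-0.85, adjusted p = 0.137), and the receptor genes Erbb2 and Erbb3 overlapped between genotypes. Among 13 gp130-type receptors and STAT3 feedback genes Cntfr, the ciliary neurotrophic factor receptor gene, was called, with 3, 7 and 0 in Hmga2-/- animals and 315, 49 and 49 in WT animals (-4.86, SE 0.86, adjusted p = 0.0386). Igfl3, a member of the small IGF-like family, was at 24, 47 and 26 in Hmga2-/- animals and at 622, 526 and 417 in WT animals (-4.02, SE 0.43, adjusted p = 0.00799). The list of the IGF pathway and the Lin28-let-7 axis gave no call among 13 tested genes. The growth factor genes Igf1 and Igf2 themselves were too low to test. Igf1 was at 0, 0 and 0 in Hmga2-/- animals and at 0, 1 and 0 in WT animals. Igf2 was at 5, 0 and 0 in Hmga2-/- animals and at 0, 1 and 1 in WT animals. Igf2r was at 773, 771 and 1085 in Hmga2-/- animals and at 1952, 1329 and 1521 in WT animals (-0.87, adjusted p = 0.0703). Igfbp3 was at 4296, 2633 and 7529 in Hmga2-/- animals and at 226, 2255 and 1196 in WT animals (2.37, adjusted p = 0.112).

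No tested cytokine gene of these lists passed the threshold. Of 14 interleukin-1 family genes none was called (median -0.10). Of 27 keratinocyte chemokines and cytokines listed, 15 were tested and none was called, and the rest were not tested. Among the 15, 11 values were positive (median 0.63, or 0.40 without WT 1). Cytokine genes that were not tested ran both ways. Il24 was at 0, 0 and 0 in Hmga2-/- animals and at 260, 5 and 23 in WT animals. Il19 was at 3, 0 and 0 in Hmga2-/- animals and at 66, 1 and 6 in WT animals. Ccl5 and Csf2 reached 19 and 12 in an Hmga2-/- animal, against at most 7 and 1 in WT animals. Ccl27a, a skin chemokine that attracts T cells, was at 4331, 4264 and 3845 in Hmga2-/- animals and at 521, 2655 and 1643 in WT animals (1.65, adjusted p = 0.112). The IL-36 receptor gene Il1rl2 was at 3047, 1915 and 2283 in Hmga2-/- animals and at 4677, 3369 and 3620 in WT animals (-0.70, adjusted p = 0.119). None of 20 MAPK feedback genes and none of 19 AP-1 and immediate early genes was called. In Atf3, a stress-induced partner of AP-1, the genotypes did not overlap, with 145, 515 and 330 in Hmga2-/- animals and 30, 111 and 65 in WT animals (2.26, adjusted p = 0.0914). The ICOS ligand gene Icosl, found outside these lists, fell to 91, 88 and 58 in Hmga2-/- animals, against 636, 209 and 320 in WT animals (-2.16, adjusted p = 0.0448).

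The signals that keratinocytes send to melanocytes were not called in either direction among 16 tested genes (median 0.28). Kitl, the gene for stem cell factor, was at 867, 932 and 720 in Hmga2-/- animals and at 1130, 899 and 924 in WT animals (-0.23, 95% interval -0.62 to 0.16, adjusted p = 0.427). Edn1, the endothelin gene induced by UVB, was at 103, 96 and 84 in Hmga2-/- animals and at 55, 100 and 67 in WT animals (0.39, 95% interval -0.21 to 0.98). The Kitl interval leaves room for a fall of about 0.62 on the log2 scale but not for a fall of the size seen in the wound keratins. Pomc, the melanocortin precursor, was too low to test, at 1, 8 and 5 in Hmga2-/- animals and 6, 5 and 4 in WT animals, and Edn3 was listed at 0 in all 9 libraries. Agrp, a melanocortin antagonist gene, was at 25, 46 and 47 in Hmga2-/- animals and at 6, 18 and 13 in WT animals (1.66, adjusted p = 0.129).

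Melanocyte genes themselves were low in this keratinocyte preparation. The 7 melanocyte markers summed to between 284 and 667 in Hmga2-/- libraries and between 377 and 565 in WT libraries, and the ranges overlap. Mitf, which other epidermal cells also express, was at 175, 227 and 119 in Hmga2-/- animals and at 151, 124 and 111 in WT animals (0.39, 95% interval -0.19 to 0.98). Dct, a pigment enzyme gene of melanoblasts, was at 77, 175 and 77 in Hmga2-/- animals and at 172, 101 and 97 in WT animals (-0.23, 95% interval -1.10 to 0.64). Kit was at 33, 76 and 14 in Hmga2-/- animals and at 68, 48 and 36 in WT animals (-0.56, 95% interval -1.69 to 0.57). These intervals are wide, so changes of moderate size in melanocyte transcripts were not detectable at these levels. Tyr and Mc1r were below the level needed for a test in every library of both genotypes. The 1 call among 16 lineage genes was Ptgds, a prostaglandin D synthase gene that melanocytes and other cells express, which rose: it was at 122, 88 and 96 in Hmga2-/- animals, against 24, 26 and 23 in WT animals (2.01, SE 0.27, adjusted p = 0.0159). The other 15 lineage genes gave no call, and the list median was -0.02.

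Genes of the cAMP pathway gave 1 call over 5 lists of 18, 5, 7, 15 and 25 tested genes. Since 0.733% of all tested genes were called, 1 call or none in lists of this size says little. Receptors and G proteins had 1 call among 18: Adora1, the adenosine A1 receptor gene, whose product couples to Gi and lowers cAMP, rose to 42, 30 and 33 in Hmga2-/- animals, against 5, 9 and 9 in WT animals (2.08, SE 0.39, adjusted p = 0.0470). Gnas, the gene for the stimulatory G protein subunit, was at 10902, 10018 and 10522 in Hmga2-/- animals and at 9032, 9688 and 8971 in WT animals (0.18, 95% interval -0.14 to 0.50). Gnai3 was not called (0.01, 95% interval -0.32 to 0.33). Among 5 adenylyl cyclases none was called. Adcy7 was at 186, 168 and 196 in Hmga2-/- animals and at 175, 218 and 165 in WT animals (-0.01, 95% interval -0.46 to 0.43), and Adcy3, the most abundant, lay within -0.33 to 0.24. Adcy6 was at 776, 818 and 1424 in Hmga2-/- animals and at 414, 791 and 673 in WT animals (0.68, adjusted p = 0.178).

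Enzymes that break cAMP down and those that respond to it gave no call either. None of 7 phosphodiesterases was called (median -0.38, or -0.11 without WT 1 and -0.54 with equal totals). Of the 7, 2 were lower and 0 higher without overlap, against 15.6% and 15.4% of all tested genes. Pde4b was at 375, 356 and 297 in Hmga2-/- animals and at 563, 419 and 427 in WT animals, without overlap (-0.45, 95% interval -0.84 to -0.05, adjusted p = 0.173). Pde4d was near the filter, at 25, 18 and 35 in Hmga2-/- animals and 20, 29 and 20 in WT animals (0.14, 95% interval -0.77 to 1.05). The protein kinase A list gave no call among 15 genes (median -0.07). Its catalytic subunit gene Prkaca was at 1967, 1352 and 1539 in Hmga2-/- animals and at 1434, 1746 and 1676 in WT animals (-0.01, 95% interval -0.38 to 0.35), and the regulatory subunit gene Prkar2b was not called either (-0.07, 95% interval -0.70 to 0.56). Of the 15, 3 were lower and 2 higher without overlap, against 15.6% and 15.4% of all tested genes. The regulatory subunit gene Prkar2a was lower, at 3009, 2346 and 2874 in Hmga2-/- animals and 4501, 3049 and 3202 in WT animals (-0.37, adjusted p = 0.217). The kinase inhibitor genes Pkig and Pkib had higher values in all Hmga2-/- animals than in any WT animal without passing (0.70 and 0.89, adjusted p = 0.130 and 0.137).

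Of 25 genes of CREB, its coactivators and direct cAMP targets, none was called. The list median was 0.03, and it turned to -0.14 with equal totals. Creb1 was at 1061, 911 and 1204 in Hmga2-/- animals and at 1117, 1077 and 1056 in WT animals (-0.04, 95% interval -0.37 to 0.29). Crem was at 129, 140 and 103 in Hmga2-/- animals and at 131, 137 and 145 in WT animals (-0.16, 95% interval -0.63 to 0.31). Nr4a1, an immediate early gene that cAMP can induce, was at 165, 608 and 246 in Hmga2-/- animals and at 104, 97 and 86 in WT animals (1.60, 95% interval 0.58 to 2.62, adjusted p = 0.111). Sik1 was at 2564, 1878 and 2058 in Hmga2-/- animals and at 1194, 1714 and 1646 in WT animals (0.52, 95% interval 0.09 to 0.94, adjusted p = 0.155). Neither passed the adjusted threshold, although neither overlapped between genotypes. Of the 25 genes, 4 were higher and 2 lower without overlap, against 15.4% and 15.6% of all tested genes. Transcript levels do not measure cAMP or kinase activity.

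**Figure D4:**
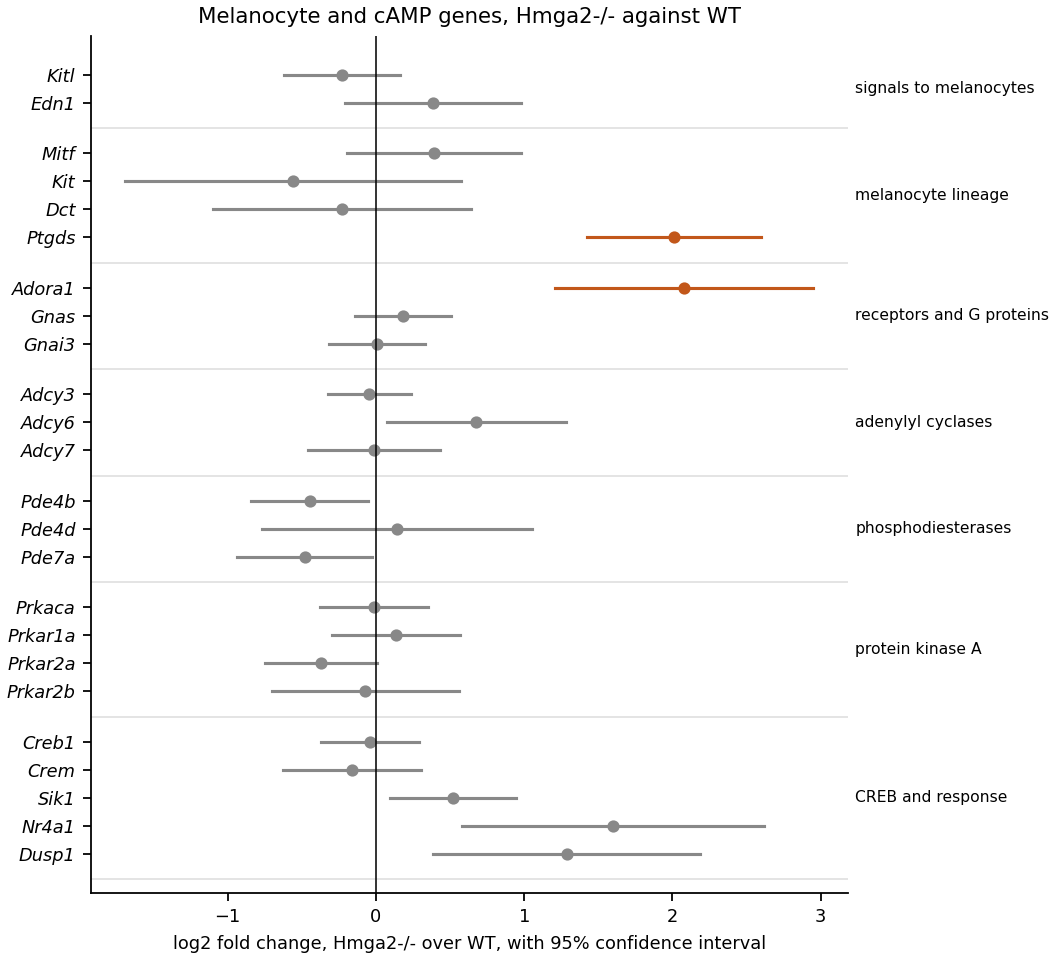
For genes of melanocyte signalling, the melanocyte lineage and the cAMP pathway, the point is the log2 fold change of Hmga2-/- over WT and the line its 95% confidence interval. Ptgds and Adora1 (orange) are the called genes, at 2.01 and 2.08, and most other intervals include 0.

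Among genes of the direct UV response no p53 or excision repair gene was called. The 30 genes of p53 and its targets had log2 fold changes from -1.03 to 0.98 (median -0.10). Of these, 6 were lower and 5 higher without overlap, near the shares of all tested genes (15.6% lower and 15.4% higher). Cdkn1a, the cell cycle inhibitor gene induced by p53, and Phlda3 were among the abundant members that did not pass. Eda2r was at 214, 235 and 105 in Hmga2-/- animals and at 469, 296 and 325 in WT animals (-1.03, adjusted p = 0.112), and Bbc3, a proapoptotic target, at 558, 592 and 914 in Hmga2-/- animals and at 180, 485 and 445 in WT animals (0.98, adjusted p = 0.150). None of 26 nucleotide excision repair genes was called (median 0.09, or -0.07 with equal totals). Xpa, which verifies damage, was at 555, 868 and 720 in Hmga2-/- animals and at 324, 548 and 445 in WT animals (0.71, adjusted p = 0.142). NRF2 and antioxidant genes gave 1 call among 27: Slc7a11, the cystine transporter gene, was at 35, 36 and 49 in Hmga2-/- animals and at 390, 90 and 264 in WT animals (-2.38, SE 0.47, adjusted p = 0.0499). Duox1, an oxidase gene that makes hydrogen peroxide, fell to 150, 122 and 101 in Hmga2-/- animals, against 2658, 461 and 782 in WT animals (adjusted p = 0.0341). No call was made among 23 ATF4 and unfolded protein genes, 16 heat shock chaperones, 9 metallothionein and zinc genes or 26 interferon-stimulated genes.

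Lipid metabolism held single large changes. Fabp5, the epidermal fatty acid binding protein, was at 11997, 12785 and 9849 in Hmga2-/- animals and at 73589, 34055 and 51234 in WT animals (-2.14, SE 0.30, adjusted p = 0.0182). Pla2g4e, a cytosolic phospholipase gene, was at 231, 438 and 150 in Hmga2-/- animals and at 3612, 1101 and 1754 in WT animals (-2.94, SE 0.43, adjusted p = 0.0219). Scarb1, the high-density lipoprotein receptor gene, was at 116, 105 and 68 in Hmga2-/- animals and at 927, 260 and 430 in WT animals (-2.31, adjusted p = 0.0386). Cholesterol synthesis genes gave no call, with 19 of 20 values negative and a median of -0.34. Among 24 barrier lipid genes, 25 sebocyte genes and 25 genes of glycolysis and hypoxia none was called, with 16, 18 and 21 negative values. Hif1a was at 2466, 2447 and 2067 in Hmga2-/- animals and at 7131, 3288 and 3772 in WT animals (-0.94, adjusted p = 0.0948). Without Hmga2-/- 3 and WT 1 the medians were -0.28 for cholesterol synthesis, against -0.34 with all libraries, and -0.14 for sebocyte genes, against -0.79. Arg1, which turns arginine into ornithine for polyamines, rose with 1585, 1464 and 1511 in Hmga2-/- animals and 424, 787 and 703 in WT animals (1.30, SE 0.25, adjusted p = 0.0470).

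Among cell division genes 3 of 34 mitosis genes fell and the others did not pass. Of the 34, 33 had negative log2 fold changes and 21 did not overlap in the lower direction, against 15.6% of all tested genes, with a median of -0.48. By library the list stood at -0.42, 0 and -0.42 in Hmga2-/- 1, 2 and 3, and at 0.45, 0.15 and 0.22 in WT 1, 2 and 3, as the median of log2 values centred on each gene. Incenp, of the chromosomal passenger complex, was at 1128, 1115 and 1106 in Hmga2-/- animals and at 2155, 1783 and 2167 in WT animals (-0.86, SE 0.15, adjusted p = 0.0386). The spindle checkpoint kinase gene Bub1 was at 217, 275 and 201 in Hmga2-/- animals and at 670, 406 and 481 in WT animals (-1.15, SE 0.22, adjusted p = 0.0473). Tpx2, a spindle assembly gene, was the third call, with 888, 1090 and 945 in Hmga2-/- animals and 1947, 1472 and 1731 in WT animals (-0.81, adjusted p = 0.0495). Of 37 replication and S-phase genes none was called, 29 were negative and the median was -0.23. E2f8, an atypical E2F gene outside these lists, fell to 375, 353 and 379 in Hmga2-/- animals, against 1405, 672 and 924 in WT animals (-1.37, SE 0.24, adjusted p = 0.0386). Without Hmga2-/- 3 and WT 1 the medians were -0.37 for mitosis and -0.07 for replication.

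The 15 risers included markers of follicle cells and a receptor of epidermal stem cells. Krt32, a hair cuticle keratin gene, was at 972, 687 and 1565 in Hmga2-/- animals and at 132, 265 and 241 in WT animals (2.31, SE 0.32, adjusted p = 0.0180). Krt33a, a hair cortex keratin gene, was at 23, 32 and 23 in Hmga2-/- animals and at 2, 0 and 4 in WT animals (3.44, SE 0.61, adjusted p = 0.0386). They were the 2 calls among 10 tested hair shaft and root sheath keratins, of which 8 had positive values. The root sheath keratin Krt71 was at 246 in Hmga2-/- 2 and at most 12 in the other 5 animals. Krt27 and Krt25 did not meet the rule for testing. In Hmga2-/- 2 they reached 237 and 147, against at most 14 and 3 in the other 5 animals. Krt36, also not tested, was highest in Hmga2-/- 3, at 23. Lgr6, an R-spondin receptor gene of follicle and interfollicular stem cells, was at 2219, 1643 and 2002 in Hmga2-/- animals and at 774, 1115 and 833 in WT animals (1.11, SE 0.21, adjusted p = 0.0448). None of 22 hair follicle stem cell genes was called, although Fgf18, which holds follicles in telogen, was at 483, 590 and 363 in Hmga2-/- animals and at 221, 167 and 211 in WT animals (1.24, adjusted p = 0.0552).

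Other risers had diverse roles. Ccn2, a matricellular gene that YAP and TGF-beta induce, was at 777, 808 and 727 in Hmga2-/- animals and at 433, 273 and 249 in WT animals (1.32, SE 0.24, adjusted p = 0.0431). Its relative Ccn1 was at 731, 991 and 601 in Hmga2-/- animals and at 275, 370 and 425 in WT animals (1.11, adjusted p = 0.0855), while the YAP and TGF-beta list as a whole had 10 positive and 10 negative values. Spock2, a proteoglycan gene, was at 1243, 1380 and 2105 in Hmga2-/- animals and at 153, 577 and 368 in WT animals (2.26, adjusted p = 0.0455). Camk2n1, an inhibitor of calcium/calmodulin kinase II, was at 595, 750 and 746 in Hmga2-/- animals and at 94, 249 and 142 in WT animals (2.21, SE 0.35, adjusted p = 0.0279), and the calmodulin kinase gene Camk1 also rose (1.30, adjusted p = 0.0386). Rec8, a meiotic cohesin gene, rose to 1070, 1249 and 1686 in Hmga2-/- animals, against 233, 463 and 517 in WT animals (1.78, adjusted p = 0.0479). Fam180a was at 47, 53 and 129 in Hmga2-/- animals and at 4, 14 and 12 in WT animals, and the glutathione transferase gene Gstm5 also rose (1.10, adjusted p = 0.0470). WT 1 was the lowest WT animal for 12 of the 15.

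Each of 3 lists of transcription factors and clock genes gave 1 call, and the glucocorticoid-induced list gave none. Over all tested genes 0.733% were called. Lower and higher without overlap were 7 and 6 of 28 epidermal transcription factors and 3 and 4 of 14 Kruppel-like factors. They were 4 and 4 of 19 clock genes and 0 and 4 of 16 glucocorticoid-induced genes. The shares of all tested genes were 15.6% lower and 15.4% higher. Pitx1, a homeobox gene, was at 6, 0 and 0 in Hmga2-/- animals and at 152, 49 and 34 in WT animals, and was the 1 call among 28 epidermal transcription factors (-5.07, SE 0.81, adjusted p = 0.0286). The ETS family genes Elk3 and Ehf were lower in all Hmga2-/- animals than in any WT animal; Elk3 was called (-2.46, adjusted p = 0.0386) and Ehf was not (-1.18, adjusted p = 0.0769). Klf2 was the 1 call among 14 Kruppel-like factors, at 109, 128 and 168 in Hmga2-/- animals and 24, 57 and 39 in WT animals (1.79, SE 0.34, adjusted p = 0.0470). Bhlhe40, a clock and stress repressor gene, was the 1 call among 19 clock genes, at 1494, 1411 and 1424 in Hmga2-/- animals and 4689, 2574 and 2665 in WT animals (-1.14, SE 0.22, adjusted p = 0.0499). Of 16 glucocorticoid-induced genes 14 had positive values (median 0.57) and none was called. Tsc22d3, a classic glucocorticoid target, was at 4949, 3156 and 6385 in Hmga2-/- animals and at 971, 2535 and 1790 in WT animals (adjusted p = 0.0769), and Zbtb16 stood high in Hmga2-/- 3 alone, at 1160 against 270 and 383 in Hmga2-/- 1 and 2.

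Genes of other cell types in the epidermal sheet gave no call in the Langerhans cell, T cell, Skint and fibroblast lists. Langerhans cell and class II genes had 18 of 20 positive values (median 0.69), and their 5 markers summed to 16374, 30468 and 34505 from lowest to highest in Hmga2-/- libraries and 4920, 12771 and 22159 in WT libraries. Epidermal T cell genes had 19 of 21 positive values (median 0.46), with marker sums of 3878, 3883 and 5046 in Hmga2-/- libraries and 1336, 2597 and 4291 in WT libraries. All 11 Skint genes, keratinocyte genes that select these T cells, were positive (median 0.75), among them Skint5 at 1788, 2149 and 2676 in Hmga2-/- animals and 345, 1618 and 1101 in WT animals (1.35, adjusted p = 0.159). Much of this came from WT 1: without it the medians were 0.28, 0.03 and 0.16. The K5H2 libraries, which share the estimate of spread, were at 3, 2648 and 0 for Skint3 and at 2, 2086 and 0 for Skint9. The SE of these genes was 2.15 and 2.14, so their lack of a call says little. Fibroblast marker sums did not overlap, at 236, 535 and 897 in Hmga2-/- libraries and 37, 61 and 96 in WT libraries. The collagen gene Col3a1 was at 182, 105 and 35 in Hmga2-/- animals and at 9, 16 and 1 in WT animals (3.67, adjusted p = 0.112). Whether dermal cells took part in any called gene was not tested. Red cell marker sums did not overlap either, at 236 to 503 in Hmga2-/- libraries and 49 to 224 in WT libraries. They came almost wholly from Hba-a1. The beta-globin marker Hbb-bs was at 0 in all Hmga2-/- libraries and at 0, 0 and 6 in WT 1, 2 and 3, so these sums do not measure red cells.

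None of the ribosomal, mitochondrial and respiratory chain genes was called. Of 48 cytosolic ribosomal protein genes 46 were positive and 40 did not overlap in the higher direction, against 15.4% of all tested genes, with a median of 0.57 and no call; with equal totals the median was 0.41. Of 10 transcripts of the mitochondrial genome 9 were negative (median -1.12), but none was without overlap. Hmga2-/- 1 had the highest centred median of the 6 libraries, at 1.27, with -1.17 and -1.81 in Hmga2-/- 2 and 3 and 0.83, 0.33 and 0.52 in WT 1, 2 and 3. Nuclear-encoded respiratory chain genes had a median of 0.19, with 26 of 42 positive and none called. The part that RNA quality or depth had in these shifts was not tested.

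**Figure D5:**
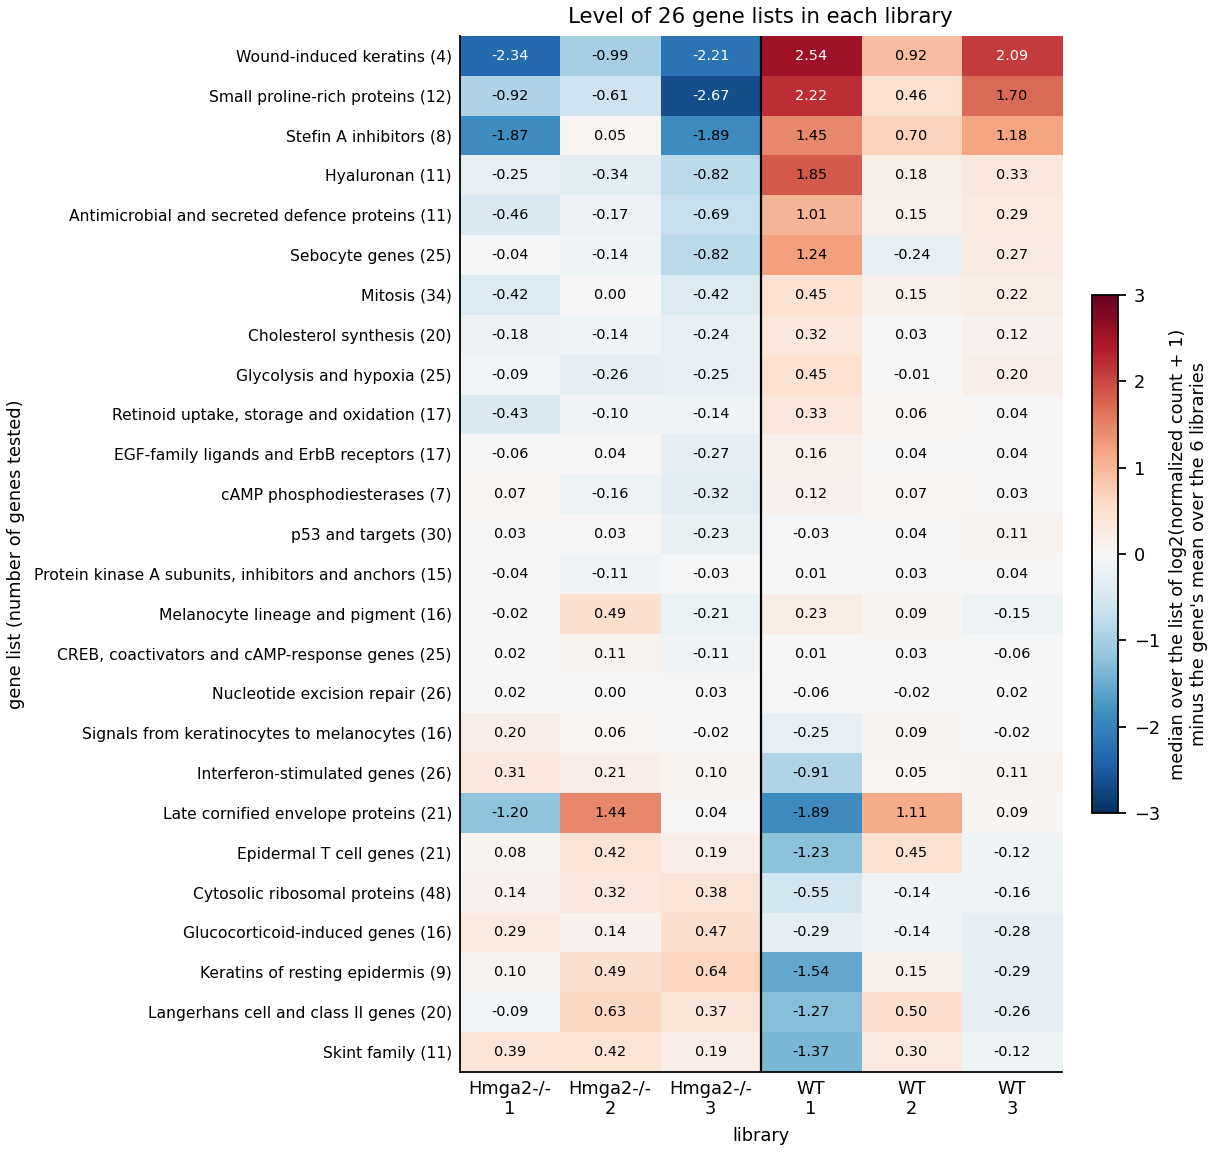
Rows are 26 gene lists (number of genes tested in brackets) and columns the 3 Hmga2-/- libraries left of the 3 WT libraries; each cell is the list's median of log2(normalized count + 1) after each gene was centred on its average across the 6 libraries. Wound keratins run from -2.34 to -0.99 in Hmga2-/- and from 0.92 to 2.54 in WT, CREB and protein kinase A lists stay within 0.11 of 0, and WT 1 is the lowest library for the immune and Skint lists.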

How the data were processed

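RNA of UVB-exposed epidermal keratinocytes from 3 mice per genotype was sequenced as directional poly(A) libraries, per the labels' protocols. The submitters' processing notes name Trim Galore, STAR, DESeq2 and GRCm38, without versions. The deposited table gives each gene in each library a score, a count which per the file headers the authors normalized between libraries and rounded. The authors' fold change and p columns were not used, and 0 columns of per-sample values went unmapped. Rounding and normalization leave these values unsuited to a count test. Values were therefore taken as log2(value + 1) and fitted with limma 3.58.1 (R 4.3.3) with a trended variance, 1 mean per genotype over all 9 libraries and no covariate. Genes of every biotype with at least 10 in at least 3 libraries (14695) entered the fit and the Benjamini-Hochberg adjustment, and protein-coding genes are reported. The 95% intervals come from the same fit. Reads per library were approximated from the steps between low values, so depths are estimates; intervals cover the spread between animals as fitted. No label says how litters or cages were shared. Replicates differed by more than counting noise, so each counted as 1 sample. The fit was also run on simulated data with independent noise for each gene. That run held no shift shared by the genes of a library, so it cannot speak to the dependence on single animals. Tables and plots were made in Python 3.11.15 with numpy 2.4.6, pandas 2.3.3, scipy 1.17.1 and matplotlib 3.10.9.

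The comparison and its 68 gene lists (1273 genes, 1102 tested) were chosen with earlier results of these data known, so the lists are not independent evidence. Genes named are Hmga2, the 12 largest falls and the 12 largest rises among called genes without overlap and with a mean of at least 50 in the higher genotype, up to 4 called members and the 2 most abundant members of each list, and 20 genes of melanocyte and cAMP signalling. Some of these were left out of the text, and some items are not reported here. Outside this rule, chosen after their values were seen, are Agrp, Aox4, Atf3, Bbc3, Ccn1, Cd68, Col3a1, Cotl1, Crabp2, Cxcr2, Ddr2, Dgat1, Duox1, E2f8, Eda2r, Efemp2, Ehf, Elk3, Fbln1, Fbln2, Fgf18, Fscn1, Gjb6, Gstm5, Hif1a, Hmga1, Icosl, Igf2r, Igfl3, Klk5, Klk6, Krt5, Krt17, Krt25, Krt27, Krt36, Krt71, Lce3c, Lce3f, Lcn2, Lyve1, Pkib, Pkig, Rbp2, Scarb1, Skint5, Sprr2a2, Sprr2d, Sprr2h, Tgfa, Tgm3, Tnc, Tsc22d3, Tubb3, Tubb6, Xpa and Zbtb16. Ccl5, Csf2, Igf1, Igf2, Il19 and Il24, which did not meet the rule for testing, were also chosen in this way. Alternatives tried were other scalings, added values of 5 and 0.5, filters, gene and library sets, robust moderation, a replicate block and each library left out.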

Additional observations from a re-analysis of the deposited data

How the results depend on the processing

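The number of called protein-coding genes was 95 with all libraries, 178 with totals made equal and 36 with only the 6 Hmga2-/- and WT libraries. Leaving out 1 library at a time gave 0 to 468, and leaving out both Hmga2-/- 3 and WT 1, an alternative chosen after seeing the data, gave 0. Quantile normalization, the added values 5 and 0.5, no filter, a filter of 50, protein-coding genes only and robust moderation gave 103, 119, 71, 88, 68, 91 and 82. A block on the replicate number gave 115 calls (25 higher, 90 lower), of which 79 were among the 95. No label says that equal numbers pair animals. Same-numbered Hmga2-/- and WT libraries had correlated deviations of 0.21, -0.09 and 0.14, and Hmga2-/- 3 was closest to WT 2 (0.25). With 3 animals per genotype these values cannot decide whether animals were paired. Hmga2 stayed negative throughout (-4.36 to -1.93) and was not called under any alternative. All 95 calls kept their direction wherever they were tested (89 of 89 under the filter of 50).

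Signs turned only in genes that were not called. With equal totals the log2 fold change was -0.16 for Gnai3, -0.00253 for Gsdma, -0.13 for Krt5 and -0.0161 for Pde4d. With quantile normalization it was 0.0321 for Adcy7, 0.00734 for C1qa, -0.10 for Gnai3 and -0.54 for Krt5. Without both Hmga2-/- 3 and WT 1 it was 0.23 for Dct, 0.0521 for Defb1, -0.0974 for Erbb2, -0.0487 for Gnai3, -0.084 for Gsdma, 0.0119 for Hyal2, 0.27 for Kit, -0.0777 for Krt5, -0.0458 for Lce1a1, -0.18 for Pde4d and 0.0283 for Sprr1a. Over the fits that left out 1 library the range was -0.116 to 0.0372 for Adcy3, -0.0938 to 0.106 for Adcy7, -0.493 to 0.339 for C1qa and -0.139 to 0.0615 for Creb1. It was -0.00466 to 0.401 for Cst6, -0.622 to 0.0332 for Dct, -0.13 to 0.572 for Defb6 and -0.0706 to 0.0624 for Gnai3. It was -0.0613 to 0.288 for Gsdma, -1.15 to 0.0329 for Kit, -0.0494 to 0.176 for Krt5 and -1.71 to 2.26 for Krt71. It was -0.0897 to 0.371 for Pde4d, -0.161 to 0.109 for Prkaca and -0.168 to 0.119 for Prkar2b. The causes were not tested. The 3 animals per genotype and the low counts of melanocyte genes limit what could be detected.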
